A study of Mus musculus with 6 samples.

Results

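Entry into the cell cycle from G1 was examined through 10 genes: the D-type cyclins Ccnd1, Ccnd2 and Ccnd3, their kinase partners Cdk4 and Cdk6, the INK4-ARF inhibitors Cdkn2a, Cdkn2b, Cdkn2c and Cdkn2d, and the CIP/KIP inhibitor Cdkn1b. They were selected by gene symbol from a table of 26898 genes, and 10 of 10 were found and passed the filter on low expression, which left 14799 genes for testing. RNA sequencing compared primary mouse embryonic fibroblasts (MEFs, connective tissue cells grown directly from embryos) at passage 3, on a C57BL/6 background. The WT group was Kansl1fl/fl, with both Kansl1 alleles flanked by recombination sites (samples WT 4, 5 and 8), and the KO group was Kansl1fl/fl/CAG-cre (samples KO 3, 7 and 10), giving 3 samples per group. All 6 samples, WT included, received 1 μM tamoxifen for 48 h, which activates the Cre recombinase that the KO group alone carried under the broadly active CAG promoter. The labels give 10% serum for all 6 samples, whereas the study's general methods for MEFs give a higher share. Kansl1 belongs to the NSL complex, which acetylates histones. Its deletion and the presence of active Cre cannot be told apart. These are bulk samples, in which fewer cells of a type and less RNA per cell cannot be told apart either.

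In G1, mitogens raise D-type cyclins, which bind and activate CDK4 and CDK6. These kinases phosphorylate the retinoblastoma protein and its relatives, which then release E2F factors that switch on genes for DNA replication. INK4 proteins bind CDK4 and CDK6 and block their pairing with cyclin D, whereas ARF acts on another branch by holding back MDM2, the protein that marks p53 for degradation. In cultured fibroblasts the Cdkn2a-Cdkn2b locus is known for its rise with passage and in senescence, a lasting exit from the cell cycle.

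Recovered reads assigned to genes numbered between 17655495 in KO 3 and 27718259 in KO 7. The most abundant RNA held 15.5%, 18.3% and 24.3% of TPM in WT 4, 5 and 8. In KO 3, 7 and 10 it held 25.6%, 15.5% and 19.9%, and TPM of all other genes share what is left. Kansl1 itself was not absent from the KO samples: its RNA over all exons averaged 14.6 TPM, 55.1% of the 26.6 TPM in WT (log2 fold change -0.82, limma adjusted p = 0.000859), so KO names the genotype and not a complete loss of the transcript. KO 7 was the single library with high Xist and with Y-linked genes at 0, while Ddx3y lay between 49.6 and 63.2 TPM in the other 5, so the KO group mixed embryos that differ in sex chromosomes. Results were therefore also computed without KO 7. Of 9 tested fibroblast markers, 0 were called (0 also with voom, and 0 at an unadjusted p under 0.05), and their summed level was 10277 to 14852 TPM in WT and 11003 to 14436 TPM in KO MEFs. Some lists of markers of other cell types separated the groups and others overlapped. All 4 smooth muscle and myofibroblast markers were lower in each KO sample than in any WT sample (29.9% of all tested genes were), with sums of 5623 to 6360 TPM in WT against 4179 to 4899 TPM in KO MEFs, and Myh11, a smooth muscle myosin, was called lower (-1.08, limma adjusted p = 0.000614). Both epithelial markers that could be tested were higher in each KO sample than in any WT sample (13.3% of all tested genes were), and neither was called. Macrophage markers are given beside the INK4-ARF genes. Of the tested markers of skeletal muscle (2), neural cells (4) and endothelium (2), 0 were called (0 also with voom, and 2 higher and 0 lower at an unadjusted p under 0.05), and 1, an endothelial marker, separated the groups. Among all tested genes, 2.93% were higher and 14.5% lower with voom, and 12.2% and 27.2% at an unadjusted p under 0.05. Of all tested genes, 43.2% separated the groups. The part of other cell types in the results was not tested.

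The sequence of Cdkn2a is shown because the single value of this gene covers 2 messages with different products. On mm10 it spans chr4:89274471-89294653 on the minus strand. The transcript Cdkn2a-201 starts with an exon at chr4:89281986-89282192 and encodes p16INK4a, whereas Cdkn2a-202 starts farther upstream, at chr4:89294334-89294653, and encodes p19ARF. Both splice into the same coding exon at chr4:89276645-89276985. The junctions are printed with 60 bases on each side, the first exon in lower case and the shared exon in capitals.
Cdkn2a-201: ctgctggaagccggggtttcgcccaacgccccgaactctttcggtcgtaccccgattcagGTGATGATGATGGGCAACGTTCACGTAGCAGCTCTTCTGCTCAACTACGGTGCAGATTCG
Cdkn2a-202: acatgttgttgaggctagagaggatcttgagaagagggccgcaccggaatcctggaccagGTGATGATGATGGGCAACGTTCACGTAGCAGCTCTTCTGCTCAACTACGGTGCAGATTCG
The capitals are identical in both lines, but the exon is entered in frame 0 from the first and in frame 2 from the second, so the same bases encode unrelated amino acids. Of the 1172 bp of merged exons, 575 bp (49.1%) belong to both transcripts. The deposited value is 1 sum over the gene, and how much of it came from p16INK4a and how much from p19ARF was not analysed here.

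The neighbour Cdkn2b, which encodes p15INK4b, lies 11645 bp from Cdkn2a, at chr4:89306299-89311039 on the same strand. The stretches just upstream of the start sites of this locus are shown because its genes had the highest positive fold changes among the 10. They come from a set of RefSeq promoters on GRCm38.p6 in which 8 of the 10 genes were matched, and each printed stretch stops where an annotated exon begins. Capitals mark matches, on either strand, to an E2F motif (TTTCCCGC, TTTCGCGC or TTTGGCGC), a GC box (GGGCGG), an E-box (CACGTG), a cyclic AMP response element (TGACGTCA) or CCAAT.
Cdkn2a, upstream of the p19ARF first exon (chr4:89294654-89294869, minus strand): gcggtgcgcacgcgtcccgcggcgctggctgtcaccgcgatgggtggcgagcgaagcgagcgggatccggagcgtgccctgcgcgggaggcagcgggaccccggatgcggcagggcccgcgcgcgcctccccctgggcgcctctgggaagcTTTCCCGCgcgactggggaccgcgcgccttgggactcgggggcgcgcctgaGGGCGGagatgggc
Cdkn2a, upstream of the p16INK4a first exon (chr4:89282193-89282442, minus strand): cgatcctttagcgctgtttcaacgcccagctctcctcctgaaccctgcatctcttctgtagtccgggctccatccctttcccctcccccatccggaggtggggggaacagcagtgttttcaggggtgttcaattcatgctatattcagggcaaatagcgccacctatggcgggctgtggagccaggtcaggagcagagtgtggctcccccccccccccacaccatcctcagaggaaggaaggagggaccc
Cdkn2b (chr4:89311040-89311282, minus strand): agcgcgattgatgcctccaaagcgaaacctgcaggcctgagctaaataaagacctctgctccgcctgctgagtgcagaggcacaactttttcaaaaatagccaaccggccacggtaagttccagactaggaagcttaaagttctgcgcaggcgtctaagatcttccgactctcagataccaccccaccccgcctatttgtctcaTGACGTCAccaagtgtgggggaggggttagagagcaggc
The p19ARF stretch held 1 E2F motif and 1 GC box, the p16INK4a stretch held no match to these letters, and the Cdkn2b stretch held 1 cyclic AMP response element. Among 32851 mouse promoters of 250 bases, an E2F motif occurred in 1.53%, a GC box in 32.7% and the cyclic AMP response element in 1.55%. A match describes letters only.

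Among the 4 INK4-ARF genes, Cdkn2b rose and Cdkn2d fell in KO MEFs, Cdkn2a lay higher in every KO sample without passing the threshold, and Cdkn2c lay lower in every KO sample without passing it. A gene was called changed at a limma adjusted p-value under 0.005 together with a log2 fold change above 0.5 or below -0.5, the thresholds of the study. By this rule 1.64% of all tested genes were higher and 9.03% were lower in KO MEFs. These shares are 242 and 1337 genes, against 473 higher and 1440 lower with median-of-ratios scaling. Of the 10 genes, 1 was called higher and 1 lower.

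Cdkn2b measured 41.9, 59.6 and 54.6 TPM in WT 4, 5 and 8, against 91.0, 97.9 and 90.2 TPM in KO 3, 7 and 10. The groups did not overlap, and the lowest KO sample exceeded the highest WT sample by a wide margin. Its mean rose from 52.0 ± 9.11 to 93.0 ± 4.19 TPM (SD, n = 3 each), or 1.79-fold, with a log2 fold change of 0.84 (SE 0.13, limma adjusted p = 0.00179). The 95% confidence interval of that fold change ran from 0.54 to 1.14. The call was lost without KO 3 (log2 fold change 0.86, limma adjusted p = 0.00859) and without KO 7 (0.80, limma adjusted p = 0.00779). It was also lost when all genes of the table were tested with no filter (limma adjusted p = 0.0106), and with no variance trend (limma adjusted p = 0.00553).

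Cdkn2a measured 26.2, 33.7 and 36.8 TPM in the WT samples against 58.5, 46.0 and 57.2 TPM in the KO samples. Each KO value was above each WT value, with KO 7 the closest to the WT range. The means were 32.2 ± 5.44 and 53.9 ± 6.92 TPM (SD, n = 3 each), and the log2 fold change of 0.73 (SE 0.15, 95% interval 0.40 to 1.06) came with a limma adjusted p of 0.00562, just over the threshold. It rests on 249 to 409 recovered reads per WT sample and 499 to 599 per KO sample. With a filter of 10 TPM in place of 1 TPM the adjusted p was 3.17e-05, and Cdkn2a was then called higher. In the other direction, it was 0.0124 with voom, 0.0176 with median-of-ratios scaling, 0.0210 without the most abundant RNA, 0.0243 with no filter and 0.0259 without KO 3.

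Cdkn2d, which encodes p19INK4d, an inhibitor unrelated to p19ARF in spite of the name, measured 20.1, 21.4 and 19.1 TPM in WT against 8.39, 9.64 and 7.97 TPM in KO samples. The samples of each group lay close together and the groups were far apart. The mean fell from 20.2 ± 1.14 TPM to 8.66 ± 0.869 TPM (SD, n = 3 each), 42.9% of the WT level. This was the largest change among the 10 genes, with a log2 fold change of -1.13 (SE 0.11, 95% interval -1.39 to -0.88, limma adjusted p = 0.000284). Cdkn2d (chr9:21288410-21291407, minus strand) was called lower under each alternative tried and without any 1 of the 6 libraries.

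Cdkn2c encodes p18INK4c, an inhibitor of CDK4 and CDK6 that is itself expressed in dividing cells. Its values were 10.5, 13.7 and 12.6 TPM in WT against 6.81, 9.18 and 9.47 TPM in KO samples. The KO samples were all below the WT samples, although KO 10 and WT 4 were close. The means of 12.2 ± 1.62 and 8.49 ± 1.46 TPM (SD, n = 3 each) gave a log2 fold change of -0.49 (SE 0.15, 95% interval -0.83 to -0.14, limma adjusted p = 0.0396), short of both thresholds. Cdkn2c lies at chr4:109660876-109667189, on the same chromosome as the Cdkn2a-Cdkn2b locus but far from it.

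Macrophages express lysozyme and other genes that are rare in fibroblasts, and their markers are given beside Cdkn2a and Cdkn2b, which like most of them had higher values in each KO sample. Of 10 tested macrophage markers, 8 were higher in each KO sample than in any WT sample (13.3% of all tested genes were), and the list summed to 47.5 to 54.7 TPM in WT and 96.5 to 189 TPM in KO MEFs. Of the 10, Lyz2 alone was called higher (log2 fold change 1.59, limma adjusted p = 0.00142), at 22.5 TPM in WT and 73.6 TPM in KO MEFs. Among the 8 were the receptor gene Csf1r (1.41 TPM in WT and 3.39 TPM in KO MEFs), Adgre1 (0.753 and 2.05 TPM), Tyrobp (1.49 and 4.41 TPM) and the complement gene C1qa (4.11 and 9.82 TPM), none of them called, while Ptprc and Itgam were below the filter, at up to 0.379 TPM. The part of macrophage RNA in the Cdkn2a and Cdkn2b values was not tested.

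**Figure D1:**
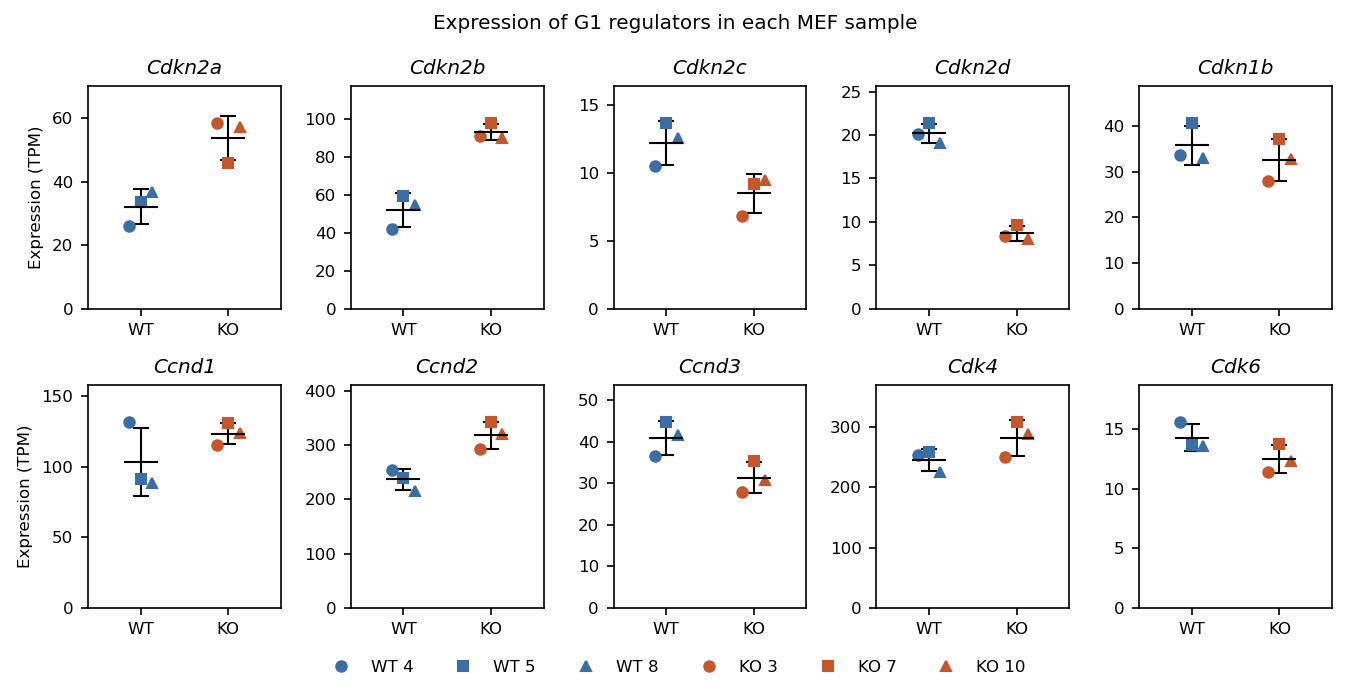
Expression of the 10 genes in each sample, in TPM on linear axes that start at 0, with 1 panel per gene; long horizontal lines are group means, error bars are 1 SD over 3 samples, and symbols tell samples of a group apart without pairing them. Cdkn2b and Cdkn2a lie higher and Cdkn2d lies lower in KO MEFs, without overlap, whereas Ccnd1, Cdk4, Cdk6 and Cdkn1b overlap between the groups.

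None of the 3 D-type cyclins was called changed, but Ccnd2 was higher and Ccnd3 lower in each KO sample than in any WT sample. Ccnd2 (chr6:127125162-127152193, minus strand), the most abundant D-type cyclin in these cells, measured 254, 240 and 216 TPM in WT against 292, 342 and 320 TPM in KO samples. The groups did not overlap. The means were 237 ± 19.1 and 318 ± 25.0 TPM (SD, n = 3 each), for a log2 fold change of 0.42 (SE 0.10, 95% interval 0.19 to 0.66, limma adjusted p = 0.0144). With median-of-ratios scaling the fold change was 0.53 and the adjusted p 0.000361, so that Ccnd2 was then called higher.

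Ccnd3, the D-type cyclin with a prominent role in lymphoid cells, lies at chr17:47505051-47599691 on the plus strand. It measured 36.6, 44.7 and 41.7 TPM in WT against 27.9, 35.2 and 30.8 TPM in KO samples. The highest KO sample, KO 7, came within a short distance of the lowest WT sample, WT 4. The means were 41.0 ± 4.09 and 31.3 ± 3.70 TPM (SD, n = 3 each), with a log2 fold change of -0.38 (SE 0.12, 95% interval -0.65 to -0.11, limma adjusted p = 0.0435).

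Ccnd1, a cyclin that responds strongly to mitogens in fibroblasts, measured 131, 90.9 and 88.0 TPM in WT against 115, 131 and 124 TPM in KO samples. WT 4 stood apart from the other WT samples and lay at the top of the KO range, just above KO 7, so the groups overlapped. The means of 103 ± 24.2 and 123 ± 7.66 TPM (SD, n = 3 each) gave a log2 fold change of 0.27 (SE 0.15, 95% interval -0.06 to 0.61, limma adjusted p = 0.206). Without WT 4 the fold change was 0.46 (limma adjusted p = 0.0112), which is still under the fold threshold. Ccnd1 lies at chr7:144929931-144939925 on the minus strand and shares 1100 bp of exon (23.4% of its own) with the opposite-strand gene LTO1, and the sources do not say whether reads were assigned by strand.

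Cdk4 and Cdk6, the kinases that D-type cyclins activate, were not called changed and overlapped between the groups. Cdk4 (chr10:127063534-127067920, plus strand) measured 253, 258 and 224 TPM in WT against 250, 307 and 289 TPM in KO samples. KO 3 lay inside the WT range, and the log2 fold change was 0.20 (SE 0.11, 95% interval -0.05 to 0.44, limma adjusted p = 0.214). With median-of-ratios scaling the fold change was 0.30 (limma adjusted p = 0.00155), and with voom it was 0.22 (0.00469). Both passed the threshold on adjusted p but not that on fold change. Without the most abundant RNA the fold change was 0.21 (limma adjusted p = 0.0159). Its exons share 641 bp (19.7%) with Tspan31 on the opposite strand, which measured 67.8 to 76.8 TPM in WT and 52.2 to 57.7 TPM in KO samples, so reads of the pair may be mixed.

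Cdk6 (chr5:3341485-3531008, plus strand) was far less abundant than Cdk4, at 15.6, 13.6 and 13.6 TPM in WT against 11.4, 13.8 and 12.3 TPM in KO samples. KO 7 lay within the WT range. The log2 fold change was -0.18 (SE 0.12, 95% interval -0.44 to 0.08, limma adjusted p = 0.290). In the main fit the interval of both kinases leaves out changes as large as the 0.5 threshold in either direction.

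Cdkn1b encodes p27KIP1, an inhibitor of cyclin-CDK2 complexes that is regulated largely through its protein. It measured 33.6, 40.6 and 33.0 TPM in WT against 28.0, 37.2 and 32.7 TPM in KO samples, and the groups overlapped. The log2 fold change was -0.13 (SE 0.13, 95% interval -0.43 to 0.16, limma adjusted p = 0.492), the smallest of the 10 in size. Cdkn1b lies at chr6:134920401-134925513 on the plus strand. Its 2 relatives, which were not among the 10, both rose: Cdkn1a, the p53 target that encodes p21CIP1, from 267 to 469 TPM (log2 fold change 0.82, limma adjusted p = 0.000797), and Cdkn1c, which encodes p57KIP2, from 13.2 to 25.3 TPM (0.89, limma adjusted p = 0.000564).

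Read together, 6 of the 10 genes separated the groups, with 3 above WT in KO MEFs (Cdkn2a, Cdkn2b, Ccnd2) and 3 below (Cdkn2c, Cdkn2d, Ccnd3). Among all tested genes such separation was common, at 43.2%, with 13.3% above and 29.9% below. At a limma adjusted p-value under 0.05 and the same fold threshold, 2 of the 10 were higher (Cdkn2a, Cdkn2b) and 1 lower (Cdkn2d), where the shares among all tested genes were 4.69% and 16.6%. The median log2 fold change was 0.03 over the 10 genes and -0.07 over all tested genes.

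**Figure D2:**
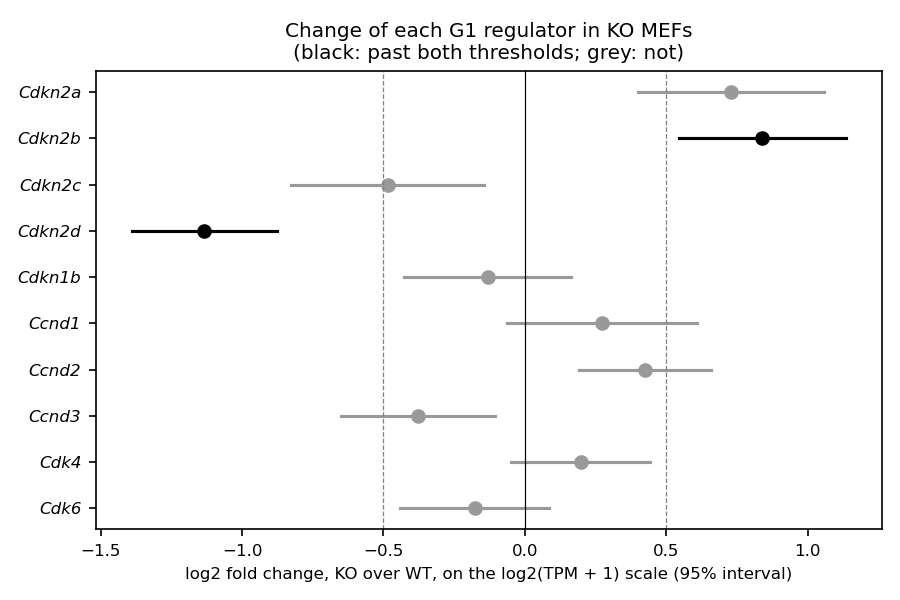
KO against WT log2 fold change of each of the 10 genes on the log2(TPM + 1) scale, with 95% confidence intervals from limma that are not adjusted for the number of genes; black marks called genes, grey the others, and dashed lines mark the thresholds at 0.5 and -0.5. Cdkn2b lies at 0.84 and Cdkn2d at -1.13, and the intervals of Ccnd1, Cdk4, Cdk6 and Cdkn1b include 0.

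Because TPM is corrected for gene length, here that of all merged exons, the level of 1 gene can be set against another within a sample, though only approximately. In WT MEFs the order of mean TPM, from high to low, was Cdk4, Ccnd2, Ccnd1, Cdkn2b, Ccnd3, Cdkn1b, Cdkn2a, Cdkn2d, Cdk6 and Cdkn2c. In WT samples the ranges overlapped for Cdk4 and Ccnd2, for Cdkn2b and Ccnd3, for Ccnd3 and Cdkn1b, for Cdkn1b and Cdkn2a, and for Cdk6 and Cdkn2c. In KO MEFs the order was Ccnd2, Cdk4, Ccnd1, Cdkn2b, Cdkn2a, Cdkn1b, Ccnd3, Cdk6, Cdkn2d and Cdkn2c, and the ranges overlapped only for Ccnd2 and Cdk4, for Cdkn1b and Ccnd3, and for Cdkn2d and Cdkn2c. By their means, Cdkn2a lay below Cdkn1b in WT and above it in KO MEFs, although in WT 8 it was already above. Cdkn2d lay above Cdk6 in each WT sample and below it in each KO sample.

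The make-up of the inhibitor pool also differed, described here without a test. Cdkn2d supplied 17.5 ± 2.52% of INK4-ARF TPM in WT MEFs and 5.28 ± 0.572% in KO MEFs (SD, n = 3 each), and Cdkn2c supplied 10.5 ± 0.249% and 5.17 ± 0.902%. The share of Cdkn2b was 44.4 ± 1.98% and 56.7 ± 3.01%. These 3 shares did not overlap between the groups, while that of Cdkn2a, 27.6 ± 2.02% and 32.8 ± 3.98%, did. The 4 genes summed to 117 ± 15.8 TPM in WT and 164 ± 1.26 TPM in KO MEFs.

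Among the D-type cyclins, Ccnd2 supplied 62.2 ± 1.86% of TPM in WT and 67.3 ± 0.172% in KO MEFs, and Ccnd3 supplied 10.9 ± 1.91% and 6.61 ± 0.290% (SD, n = 3 each). The groups were apart for both, and overlapped for Ccnd1, at 26.9 ± 3.69% and 26.1 ± 0.388%. Cdk6 made up 5.51 ± 0.423% of Cdk4 and Cdk6 together in WT and 4.25 ± 0.140% in KO MEFs. Per 100 TPM of the 2 kinases there were 45.2 ± 7.71 TPM of INK4-ARF genes in WT and 56.2 ± 6.36 TPM in KO MEFs, which overlapped. For D-type cyclins there were 147 ± 9.48 and 161 ± 5.06 TPM, which did not overlap but nearly met, at 156.9 in WT 4 and 157.8 in KO 10. These ratios are of RNA and say nothing of protein.

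Around the 10 genes, 9 lists of G1 control and its outputs held 126 tested genes, of which 27 were called, 6 higher and 21 lower, beside 1.64% higher and 9.03% lower over all tested genes. For the other counts given per list, the shares over all tested genes were 2.93% higher and 14.5% lower with voom, and 12.2% higher and 27.2% lower at an unadjusted p under 0.05 with any fold. The count of 27 fell to 16 without WT 4, 11 without WT 5, 13 without KO 3 and 16 without KO 10. Over all tested genes the 1579 calls fell too, to 1081, 758, 777 and 910 in these fits. Downstream of the kinases, the pocket protein and E2F-DP list had 0 higher and 4 lower of 18 (median log2 fold change -0.46): Rbl2, a retinoblastoma relative (-1.18), Lin52 (-1.30) and Mybl2 (-1.28), parts of the complexes that time cell cycle genes, and Tfdp2, an E2F partner (-0.92). Leaving out each of the 6 libraries in turn, the call was lost in 5 fits for Tfdp2, 1 for Lin52 and 0 for Rbl2 and Mybl2. Rb1 itself was not called (0.20, limma adjusted p = 0.321). At an unadjusted p under 0.05, 0 genes of this list were higher and 12 lower, and with voom 0 were higher and 7 lower.

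In the cyclin E-A and CDK2 list, 0 were higher and 4 lower of 11 (median -0.44): Ccne2, Ccna2 and Cdk2, which act in the passage into and through S phase, and Ccnh, the cyclin of the CDK-activating kinase, with log2 fold changes from -0.94 to -0.70. Of the 6 fits that left out 1 library, the call was lost in 6 for Cdk2 (limma adjusted p 0.00555 to 0.0158), 5 for Ccnh, 4 for Ccne2 and 1 for Ccna2. Of 20 E2F target replication genes, 0 were higher and 5 lower (median -0.50), namely Cdc6 (-1.12), Cdc45 (-0.91), Uhrf1 (-0.88), Tk1 (-0.72) and Rrm1 (-0.70), and the call was lost in 5 such fits for Tk1 and Rrm1, 1 for Cdc45 and Uhrf1 and 0 for Cdc6. Of 12 proliferation and mitosis genes, 0 were higher and 7 lower (median -0.77), with Bub1 (-1.23), Ccnb2 (-1.02), Mki67 (-0.91), Plk1 (-0.86), Ccnb1 (-0.79) and Birc5 (-0.75) having the largest changes among the 7, and all 12 were lower in each KO sample than in any WT sample, as were 29.9% of all tested genes. Here the call was lost in 5 such fits for Birc5, 4 for Mki67 and Ccnb1, 1 for Plk1 and 0 for Bub1 and Ccnb2. In these 3 lists, 0 genes were higher with voom and 0 at an unadjusted p under 0.05. With voom, 4 genes were lower in the cyclin E-A and CDK2 list, 9 among the replication genes and 11 among the proliferation genes, and at an unadjusted p under 0.05 there were 8, 15 and 12. The median over all tested genes was -0.07.

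On the ARF side, 2 of 8 genes of the ARF-MDM2-p53 list were called, both higher: Mdm2, which encodes the ubiquitin ligase that ARF inhibits (0.93, limma adjusted p = 0.000980), and Cdkn1a. Trp53 itself was not called (0.20, limma adjusted p = 0.149), and 0 genes were lower, with 1 lower at an unadjusted p under 0.05 and 0 with voom. The list median was 0.02. In the senescence-associated list 3 of 15 were higher and 0 lower (median 0.13; 7 higher and 3 lower at an unadjusted p under 0.05, 5 higher and 0 lower with voom). The 3 were Gdf15, a stress-induced cytokine (1.36), Ccl2, a chemokine (1.03), and Igfbp3, which binds insulin-like growth factors (0.83). Without 1 library in turn, the call was lost in 5 of 6 fits for Igfbp3, 4 for Ccl2, 1 for Mdm2 and 0 for Gdf15 and Cdkn1a. The call of Ccl2 was also lost with median-of-ratios scaling, without the most abundant RNA, with no filter and with no variance trend. That of Igfbp3 was lost with no filter (limma adjusted p = 0.0235) and with no variance trend (0.00864). With no filter the calls of Gdf15, Mdm2 and Cdkn1a were lost too (limma adjusted p = 0.00564, 0.00756 and 0.00606).

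Upstream, 0 higher and 1 lower were found among 22 tested regulators of the INK4-ARF locus, most of them Polycomb proteins that repress it (median 0.07; 3 higher and 4 lower at an unadjusted p under 0.05, 0 higher and 3 lower with voom). The gene called was Cbx6 (-0.81, limma adjusted p = 0.00469), a Polycomb chromodomain gene. It was lost with a pseudocount of 0.1 (limma adjusted p = 0.00505), with no filter (0.0223), with no variance trend (0.0104) and in 5 of 6 fits that left out 1 library (up to 0.0168). Ezh2, the Polycomb methyltransferase, had a log2 fold change of -0.52 (limma adjusted p = 0.0217), and Bmi1 had one of 0.10 (0.591). Phc1 was lower, at -0.62 (limma adjusted p = 0.00612), and Tbx3 was higher, at 0.42 (0.0220), neither of them called. Of the 22 genes, 12 had positive and 10 had negative fold changes. Cbx7 was below the expression filter, at 0.466 TPM in WT and 0.171 TPM in KO MEFs. Of 19 genes of cyclin D turnover and mitogen input, 0 were called (median -0.02), with 2 higher and 0 lower at an unadjusted p under 0.05 and 1 higher and 0 lower with voom.

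**Figure D3:**
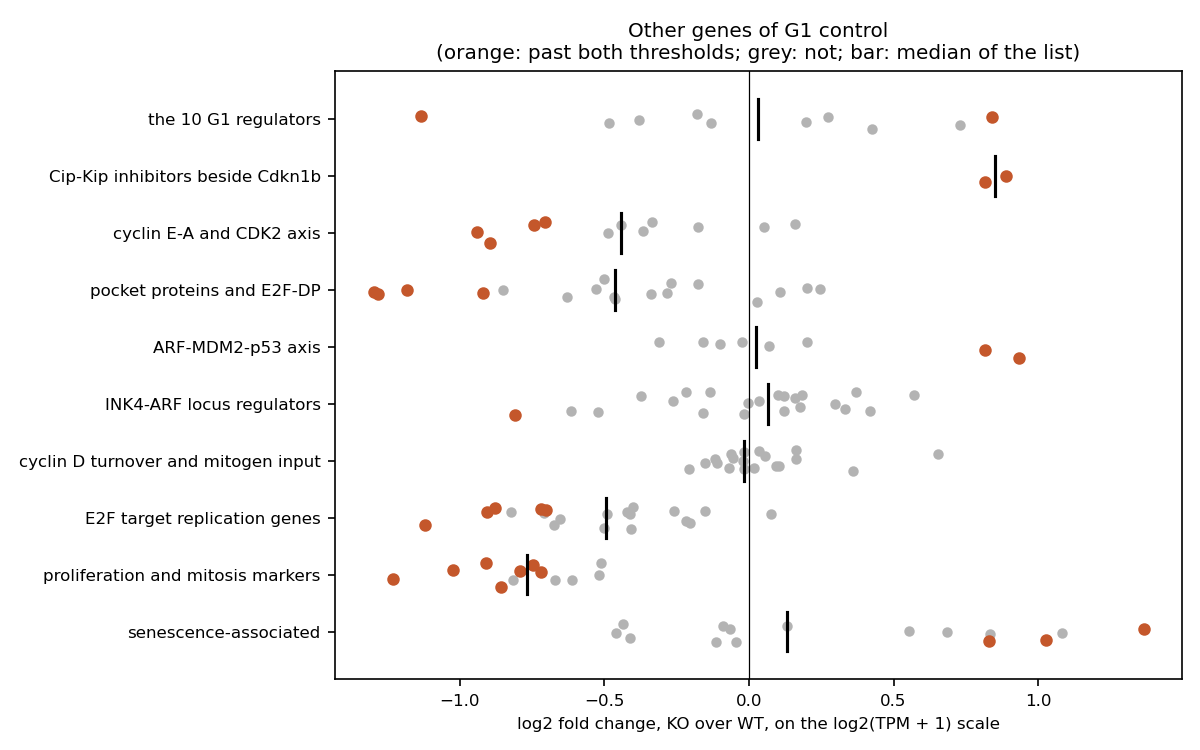
KO against WT log2 fold change on the log2(TPM + 1) scale, with the 10 genes in the top row and the tested genes of the 9 lists below, a row per list; orange points are called changed, grey points are not, short vertical bars are list medians, and points are spread vertically only for clarity. The proliferation list has the lowest median, -0.77, and the pair of CIP/KIP genes beside Cdkn1b the highest, 0.85.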

How the data were processed

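RNA was prepared per the labels from 2 μg per sample. The authors used STAR on mm10, then DESeq2; the submitters' processing notes also name Bowtie 0.12.2. The counting program and any use of strand are not given in the sources used here. The authors deposited TPM (reads per gene divided by length, scaled to 1 total per sample) for 6 samples, with a log2 fold change and an adjusted p-value of their own, which were not used.

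TPM times merged exon length (GENCODE M21, mm10) was a whole multiple of 1 step for 100% of 17832 to 18650 values per sample at a tolerance of 0.05. The recovered reads described depth and entered voom. As TPM are not counts, limma 3.58.1 in R 4.3.3 was fitted to log2(TPM + 1) with a variance trend, for genes whose mean reached 1 TPM in WT, KO or both, with Benjamini-Hochberg adjustment over 14799 genes. Fold changes on this scale understate those of low genes. Filter, genes and lists were chosen with earlier results of these data known. Text names the 10 genes, Kansl1 and, per list, up to 6 called genes with the largest change. Rb1, Trp53, Ezh2, Bmi1, Phc1, Tbx3, Cbx7 and the marker genes are named besides, chosen after their values were seen. The study gives 3 mice per group; the labels do not say whether each culture came from its own embryo, and if not, p-values measure only the spread between these samples, which may be technical.

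The fit was tested on simulated data. A first criterion, recovery of nearly all 2-fold changes, was not met, and the criterion, not the fit, was then changed to 4-fold changes. At 5 TPM or more, 84 of 85 genes changed 4-fold and 65 of 79 changed 2-fold were called among 14317 genes, with 3 false calls. The simulation gave every gene the same fixed spread and changed only genes above a limit on reads. These rates need not hold where real samples vary more. A gene that was not called is therefore not shown to be unchanged. Alternatives were another pseudocount, filter, scaling, threshold and variance model, voom, and leaving out each library.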

Additional observations from a re-analysis of the deposited data

How the results depend on the processing

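Of the 10 genes, 2 were called in the main setting (1 higher, 1 lower). With no filter, and with no variance trend, 1 was called, Cdkn2d; leaving out 1 library gave 1 to 2, with Cdkn2b lost without KO 3 and without KO 7. Cdkn2b had limma adjusted p-values of 0.0106 with no filter and 0.00553 with no variance trend. The list genes called, 27, became 3 with no filter (1 higher, Cdkn1c, and 2 lower, Mybl2 and Rbl2) and 13 with no variance trend. They became 43 with voom on recovered reads, 48 at an adjusted p under 0.05, and 11 to 23 without 1 library. Over all tested genes the 1579 calls became 341 with no filter, 1336 with no variance trend and 2585 with voom. They became 3147 at an adjusted p under 0.05, and 758 to 1081 without 1 library. With no filter more genes were tested (26898), and the variance trend was fitted again on all of them. The cause of these shifts in counts was not tested. The difference in Ccnd1 share of D-type cyclin was -0.81 percentage points and reversed to 1.29 without WT 4, with a range from -2.17 to 1.29 over the libraries left out. With reads in place of TPM, the difference in Cdk6 share was -3.99 rather than -1.25 percentage points, and that in INK4-ARF per 100 of the kinases 3.50 rather than 11.0, since reads are not divided by length; the latter was 6.74 without WT 4 and 6.74 to 14.3 over the libraries left out. Cdkn2d was called in each setting. Median-of-ratios scaling moved the median of all tested genes by 0.09 on the log2 scale. No paired analysis was possible because no number in the titles occurs in both groups. Recovered reads per sample were 249 to 599 for Cdkn2a and 96 to 295 for Cdkn2d, and the part of depth in their errors was not tested.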
